A study of Mus musculus with 4 samples.

Results

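The genes described here are 39 integrins, laminins and focal adhesion adaptors, taken by gene symbol from a table of 45882 genes measured by RNA sequencing in endothelial cells of the mouse heart. They comprise 15 integrin α chains, 8 integrin β chains, 10 laminin chains and 6 adaptors that join integrins to the actin cytoskeleton. Of the 39, 29 had a mean of at least 1 FPKM over the 4 libraries, as did 12325 genes in all, and only these entered the comparisons. FPKM, fragments per kilobase of transcript and per unit of mapped fragments, is a level scaled to transcript length and library size. The genes were taken by name and not by a cut on level or difference, but earlier results of these data were known when the list was made.

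The study asked how loss of Smad3, a transcription factor that carries the TGF-β signal to the nucleus, changed the late cardiac effects of doxorubicin (Dox), an anthracycline used against cancer. There were 4 groups of male mice with 1 library each. The Smad3 KO Dox library came from mice of the Smad3-deficient line 129-Smad3tm1Par/J given 4 weekly tail vein injections of 5 mg/kg doxorubicin from 7 weeks of age. The Smad3 KO saline library came from the same line given saline. The WT Dox library came from wild-type mice given the same doxorubicin course, and the WT saline library from wild-type mice given saline. Cells were collected 9 weeks after the last injection, at 20 weeks of age, with collagenase and beads that bind CD31, a surface protein of endothelium that platelets and some leukocytes also carry. The Smad3 change of the line is in the germline, so all cells of these mice carry it and not the endothelium alone. How many hearts each library holds is not given in the sources used here.

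Integrins are paired αβ receptors through which cells hold on to the matrix outside them. Laminins are proteins of an α, a β and a γ chain that form the inner sheet of the basement membrane, the thin layer on which endothelium and muscle rest, and integrins with an Itgb1 or Itgb4 chain bind them. At focal adhesions, talin, kindlins, integrin-linked kinase, vinculin and paxillin take part in the link of the β chain to actin. Of these, talin and kindlins switch the receptor on.

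With 1 library per group no difference has a replicate check, so no p-value, SD or standard error exists for any value below. The depth of the libraries, read from the spacing of their low values, was about 21400000 fragments for Smad3 KO Dox, 26100000 for Smad3 KO saline, 26300000 for WT Dox and 28500000 for WT saline. Smad3 itself had 0.848 FPKM in Smad3 KO Dox, 1.02 in Smad3 KO saline, 2.09 in WT Dox and 2.95 in WT saline cells, so both libraries titled KO lay under both titled WT. For 2 libraries the genotype field of the labels goes against the title, and the titles were followed. All 12 pan-endothelial markers passed the filter, and their summed level was 2591, 3221, 3149 and 3202 FPKM in the same order. The erythroid markers summed to 28549 FPKM in Smad3 KO Dox, 10289 in Smad3 KO saline, 4384 in WT Dox and 4423 in WT saline cells. In bulk RNA of this kind, fewer cells of a type and less RNA per cell cannot be told apart.

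The most abundant of the 39 genes was Itgb1, the β chain shared by most matrix-binding integrins, with a mean of 318 FPKM over the 4 libraries, above 98.0% of the genes tested. It was followed by Itga6, an α chain of laminin receptors, with a mean of 189 FPKM. Lamb2, Ilk, Fermt2 and Tln1 had means of 131, 128, 114 and 110 FPKM. The median gene tested had a mean of 8.87 FPKM, and each of these 6 genes lay above it, while Lama3 (5.76 FPKM) and the adaptor Fermt3 (3.38 FPKM) lay below. Itga4, with a mean of 1.06 FPKM, was the lowest gene inside the filter. Itgal and Lamb3, with means of 0.735 and 0.619 FPKM, were the highest outside it. Lama1, the laminin α chain of the embryo, stood at 0.05 FPKM in all 4 libraries, which is the value the table gives where nothing was measured.

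**Figure D1:**
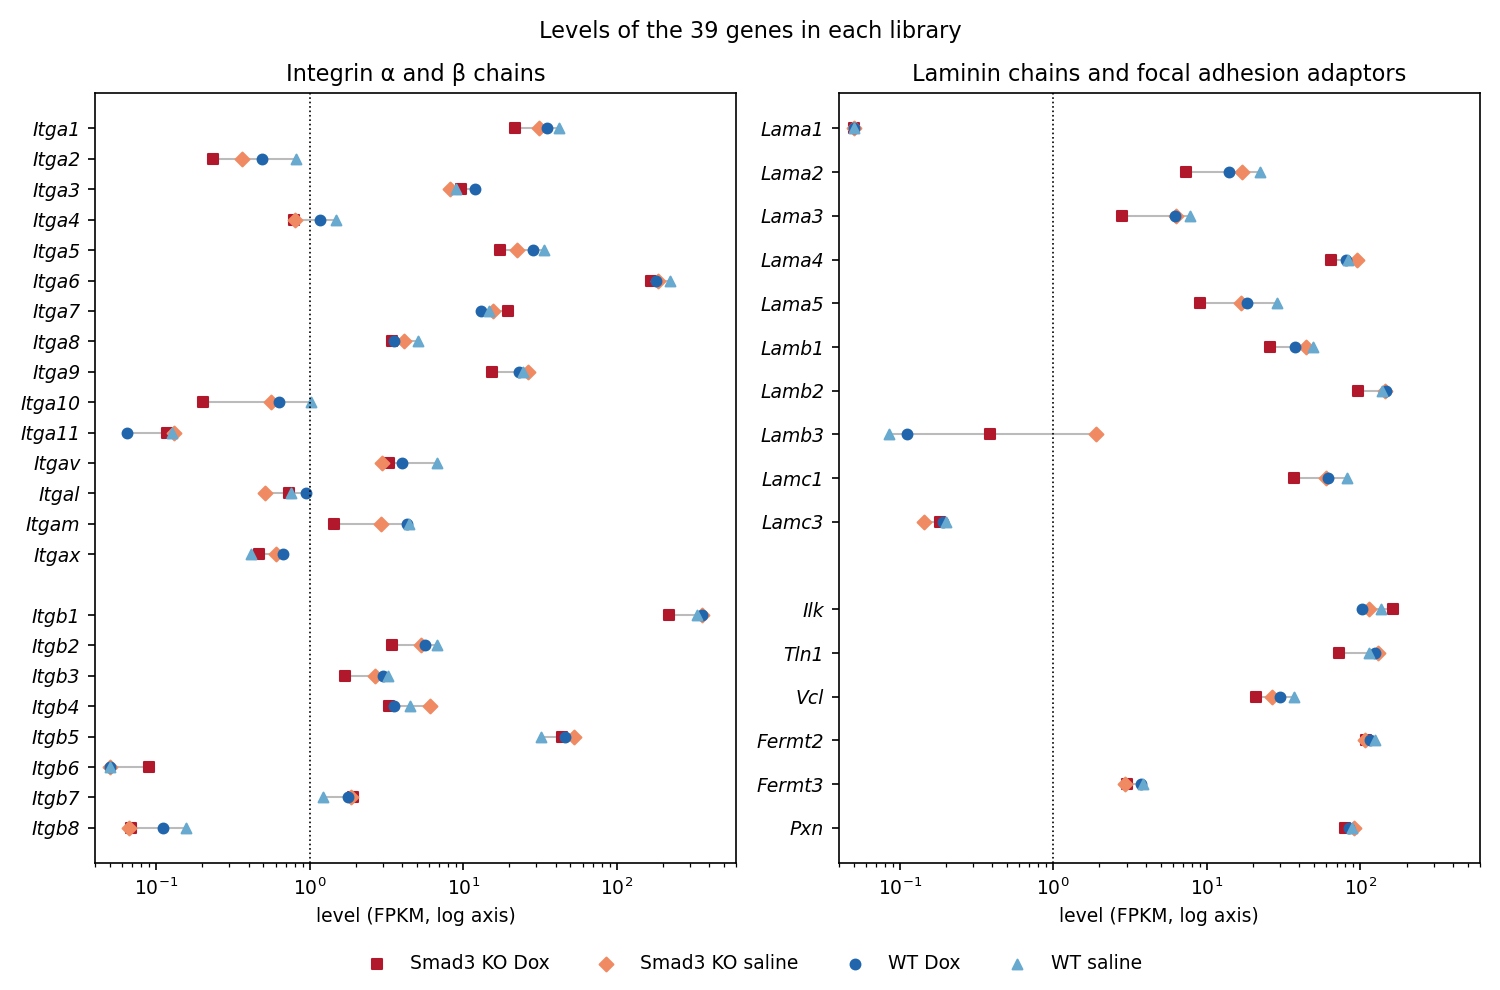
Level of each of the 39 genes in the 4 libraries, in FPKM on a log axis, with integrin chains on the left and laminin chains and adaptors on the right. Each symbol is 1 library, the grey line spans the 4 values of a gene, and the dotted line marks 1 FPKM; the squares of Smad3 KO Dox are the leftmost symbol for 21 of the 29 genes above the filter.

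The Smad3 KO Dox library held the lowest level of 21 of the 29 genes, 72.4%, against 32.0% of all genes tested. Smad3 KO Dox held the highest level of 3, 10.3%, against 41.5% of all genes. The WT saline library held the highest level of 17, 58.6%, against 32.7% of all genes. These counts are as deposited. The 29 genes have longer transcripts than all genes tested, and length moved with the differences, as described below. All 7 laminin chains above the filter, 7 of 10 integrin α chains, 4 of 6 β chains and 3 of 6 adaptors were lowest in Smad3 KO Dox. The plot of levels shows this as squares at the left end of most lines. The genes with the widest spread were Lama5, Itgam, Lama2 and Lama3, with a highest level 3.18, 3.08, 3.04 and 2.77 times the lowest. Pxn and Fermt2 had the narrowest, 1.14 and 1.16 times.

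Each comparison was made as a difference of log2(FPKM + 0.5), and a gene was said to rise or fall when that difference was at least 1 in size, a rule that counts genes and is no test. The pseudocount of 0.5 understates the change of low genes. Each comparison shares a library with 2 of the others, so their values are given side by side and not as repeats.

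Doxorubicin in wild-type mice left the 39 genes within the size rule. In WT Dox against WT saline cells 0 of 29 rose or fell, where 3.72% of all genes tested did and 2.69% fell. The median difference of the 29 was -0.23, against -0.06 over all genes, and 23 lay below 0, where 56.9% of all genes did. With the length trend described below removed, the median of the 29 was -0.01 and 15 lay below 0. As deposited, the lowest were Itgav (-0.69), Lama2 (-0.66) and Lama5 (-0.64), and the highest was Itgb5 (0.50).

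In Smad3 KO Dox against WT Dox cells, Itgam, the α chain of a macrophage and neutrophil receptor, and Lama3, a laminin α chain best known from epithelia, fell, and none of the 29 rose. That is 2 of 29 genes, where 9.92% of all genes passed the rule and 3.75% fell. The median of the 29 was -0.51, against 0.12 over all genes, and 26 lay below 0, where 41.9% of all genes did. Lama5, at -0.98, lay just short of the rule. With median-ratio scaling of the libraries, Lama2 and Lama5 joined the 2 genes (-1.02 and -1.12). Of all genes 761 rose and 462 fell as deposited, and 526 rose and 676 fell with that scaling. Most endothelial markers were lower in the same comparison. Of the 12 pan-endothelial markers 9 lay below 0, with a median of -0.24, and Cdh5, the cadherin of endothelial junctions, and Ptprb, an endothelial phosphatase, fell (-1.15 and -1.10). All 5 endocardial markers lay below 0, with a median of -0.76, and Vwf, von Willebrand factor, and Npr3, a natriuretic peptide receptor, fell (-1.63 and -1.23). Of the 7 arterial markers 4 lay below 0, with a median of -0.08, and none passed the rule. These marker differences are as deposited, with the length trend described below still in them. The part of any of these cells in the 29 genes was not tested.

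In Smad3 KO Dox against Smad3 KO saline cells, Lama2, the laminin α chain of muscle basement membrane, and Lama3 fell and none rose. That is 2 of 29, where 6.86% of all genes passed the rule and 2.84% fell. The median was -0.52, against 0.05 over all genes, and 22 of 29 lay below 0, where 44.9% of all genes did. Here 10 of the 12 pan-endothelial markers lay below 0, with a median of -0.28 and a fall of Cdh5 (-1.02), and all 5 endocardial markers did, with a median of -0.75 and falls of Vwf (-1.23) and Npr3 (-1.02). The 7 arterial markers had a median of 0.00, and none passed the rule. These marker differences too are as deposited.

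Without doxorubicin, 1 gene fell in the KO, Itgav, when Smad3 KO saline was set against WT saline cells. Itgav is the α chain of receptors that bind the RGD motif of vitronectin and fibronectin. That is 1 of 29, where 4.72% of all genes passed the rule and 3.03% fell. The median was -0.25, against -0.01 over all genes, and 19 of 29 lay below 0, where 51.4% of all genes did. In each of the 4 comparisons the share of the 29 past the rule, on counts of 2 genes or fewer, was near or under the share of all genes past it in either direction.

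Smaller differences were more frequent. At a size of 0.58, which is 1.5-fold, 12 of the 29 were lower in Smad3 KO Dox against WT Dox cells, where 12.3% of all genes were, and Ilk and Itga7 were higher, where 19.8% of all genes were. Against Smad3 KO saline 10 were lower, where 10.6% of all genes were, and 0 were higher, where 13.7% of all genes were. In WT Dox against WT saline cells 3 were lower and 0 higher, where 10.1% and 3.62% of all genes were, and in Smad3 KO saline against WT saline cells 3 were lower and 1 was higher, where 11.5% and 7.06% of all genes were. The 12 were Itga1, Itga5, Itgam, Itgb1, Itgb2, Itgb3, Lama2, Lama3, Lama5, Lamb2, Lamc1 and Tln1, most of them long transcripts, and the count depends on transcript length as described below.

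**Figure D2:**
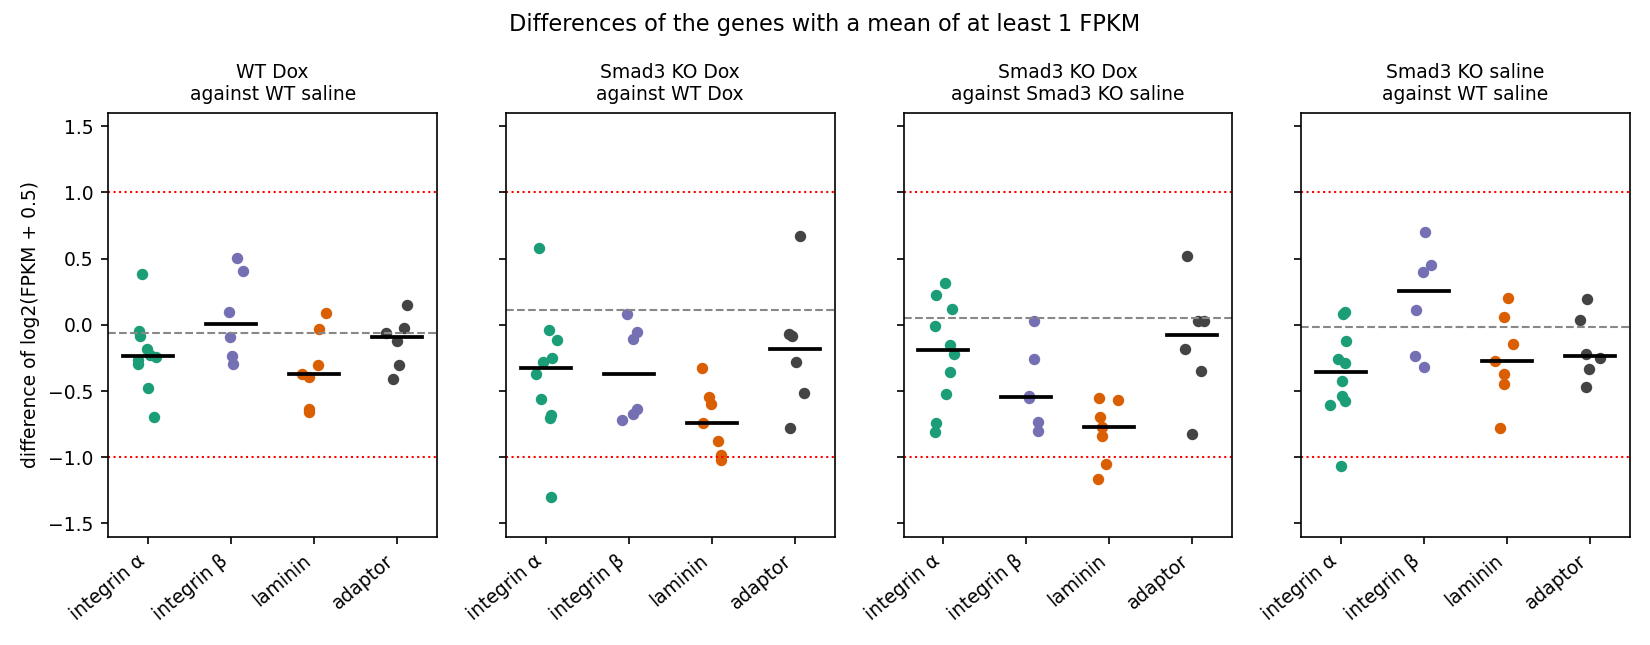
Difference of log2(FPKM + 0.5) for the 29 genes above the filter, by role, in the 4 comparisons; each point is 1 gene, the black bar is the median of the role, the dashed line the median of all 12325 genes tested, and the red dotted lines the size rule of 1. Laminins lie below 0 in both comparisons that involve Smad3 KO Dox cells, with medians of -0.74 and -0.77.

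Promoters of 3 of the 4 genes that passed the rule are shown so that their start sites can be read beside their differences; Lama3, which also passed, is not shown. The 3 fell in different comparisons, Itgam against WT Dox, Lama2 against Smad3 KO saline and Itgav in Smad3 KO saline against WT saline cells. The sequences are the 250 bases before the start that RefSeq gives on GRCm38.p6, 5′ to 3′ on the strand of the gene, for Itgam at chr7:128062390-128062639 on the plus strand, Lama2 at chr10:27616943-27617192 on the minus strand and Itgav at chr2:83724147-83724396 on the plus strand. On that build the gene of Itgam spans chr7:128062640-128118491, that of Lama2 chr10:26980036-27619758 and that of Itgav chr2:83724397-83806916 in the GENCODE annotation, and the start of Lama2 in RefSeq lies inside the longer GENCODE gene. Lamb3, whose window is chr1:193301744-193301993 on the plus strand, was added after its values were seen. Capitals mark 4 motifs searched on both strands, so that some stand there as their reverse complement. The motif CAGAC is the binding element of Smad3. The motif TGANTCA is that of the factor AP-1. The motif GAGGAAG is that of PU.1, a factor of macrophages. The motif GGGCGG is that of Sp1.
Itgam: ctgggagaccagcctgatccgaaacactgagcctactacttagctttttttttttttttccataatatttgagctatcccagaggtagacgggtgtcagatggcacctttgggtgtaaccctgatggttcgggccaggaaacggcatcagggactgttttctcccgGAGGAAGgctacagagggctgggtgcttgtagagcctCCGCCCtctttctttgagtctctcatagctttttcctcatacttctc
Lama2: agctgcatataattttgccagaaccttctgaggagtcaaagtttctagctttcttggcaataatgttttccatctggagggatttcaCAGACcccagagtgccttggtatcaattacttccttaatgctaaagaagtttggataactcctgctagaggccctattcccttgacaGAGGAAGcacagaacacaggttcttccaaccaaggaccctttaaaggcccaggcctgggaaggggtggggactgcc
Itgav: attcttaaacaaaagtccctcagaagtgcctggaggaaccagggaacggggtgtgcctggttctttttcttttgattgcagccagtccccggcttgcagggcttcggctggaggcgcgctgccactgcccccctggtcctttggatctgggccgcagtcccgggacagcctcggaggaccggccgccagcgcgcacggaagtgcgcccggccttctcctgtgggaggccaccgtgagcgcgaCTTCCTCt
Lamb3: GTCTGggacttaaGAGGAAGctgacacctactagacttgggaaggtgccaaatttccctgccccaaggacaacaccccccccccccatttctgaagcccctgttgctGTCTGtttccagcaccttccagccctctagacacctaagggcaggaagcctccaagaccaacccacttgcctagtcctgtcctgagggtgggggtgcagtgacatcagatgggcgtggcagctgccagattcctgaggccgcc

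Each window shown held GAGGAAG once, and a second start window of Lamb3 in the table, chr1:193301993-193302242, held none. These windows are a chosen set, without Lama3 and with Lamb3 added, and nothing is read from their count. CAGAC stood once in that of Lama2 and in that of Lamb3 on both sides of GAGGAAG, and neither Itgam nor Itgav held it. Of the 39 genes 27 had a promoter in the RefSeq table, and 6 of these held GAGGAAG, where 10.6% of all 32851 promoters did. CAGAC stood in 15 of the 27, against 42.2% of all promoters, TGANTCA in 1 against 6.75%, and GGGCGG in 11 against 32.7%. Some genes have more than 1 start in the table and were counted as holding a motif where any window did. The 27 were thus counted by gene and the background by promoter, so these shares are not in the same unit. These are matches of letters in a window and not binding sites.

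Among the laminin α chains, Lama4, the main α chain of endothelial basement membrane, was the most abundant in every library, with 64.6 FPKM in Smad3 KO Dox, 95.2 in Smad3 KO saline, 81.2 in WT Dox and 82.8 in WT saline cells. Lama5, the other endothelial laminin α chain, had 9.04 FPKM in Smad3 KO Dox, 16.6 in Smad3 KO saline, 18.3 in WT Dox and 28.8 in WT saline cells. Lama5 thus ran in steps with WT saline at the top and Smad3 KO Dox at the bottom, while Lama4 was low in Smad3 KO Dox alone. The difference of Lama5 was -0.98 in Smad3 KO Dox against WT Dox, -0.84 against Smad3 KO saline, -0.78 for the KO under saline and -0.64 for doxorubicin in WT. Those of Lama4 were -0.33, -0.56, 0.20 and -0.03 in the same order, and the last 2 change sign with the scaling of the libraries. Once the length trend described below was removed, Lama4 differed by -0.07 against WT Dox and -0.32 against Smad3 KO saline. Lama5 then differed by -0.49 and -0.42.

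Lama2, which is mutated in a congenital muscular dystrophy, had 7.30 FPKM in Smad3 KO Dox, 17.01 in Smad3 KO saline, 13.9 in WT Dox and 22.2 in WT saline cells. It fell by 1.17 in Smad3 KO Dox against Smad3 KO saline cells. Lama2 also had a difference of -0.88 in Smad3 KO Dox against WT Dox cells. Lama3 had 2.80 FPKM in Smad3 KO Dox, 6.31 in Smad3 KO saline, 6.17 in WT Dox and 7.75 in WT saline cells, so the other 3 libraries lay close together above Smad3 KO Dox. It fell by 1.05 against Smad3 KO saline and by 1.02 against WT Dox. With TPM in place of FPKM the falls against Smad3 KO saline became -0.95 for Lama2 and -0.87 for Lama3, under the rule.

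Because the α chains did not move by the same ratio, their mix differed between the libraries. Lama4 made up 77.1% of summed laminin α FPKM in Smad3 KO Dox, 70.4% in Smad3 KO saline, 67.9% in WT Dox and 58.5% in WT saline cells. The share of Lama5 ran the other way, 10.8% in Smad3 KO Dox, 12.3% in Smad3 KO saline, 15.3% in WT Dox and 20.3% in WT saline cells. Shares within a library do not depend on how libraries are scaled to each other, but they do depend on transcript length where long transcripts read low, as described below.

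Lamb2, the more abundant β chain, had 96.8 FPKM in Smad3 KO Dox, 144 in Smad3 KO saline, 146 in WT Dox and 138 in WT saline cells. Lamb1, the β chain of most laminins of growing tissue, had 25.7, 44.2, 37.7 and 49.0 FPKM in the same order. Lamc1, the γ chain of nearly all laminins of the heart, had 36.8, 59.9, 61.9 and 81.7 FPKM. All 3 were lowest in Smad3 KO Dox, with differences between -0.55 and -0.74 against WT Dox and between -0.57 and -0.77 against Smad3 KO saline, none past the rule. Summed β over summed γ FPKM was 3.32 in Smad3 KO Dox, 3.16 in Smad3 KO saline, 2.97 in WT Dox and 2.28 in WT saline cells. That ratio was lowest in WT saline, the library in which Lamc1 was highest. The summed α chains had 83.8, 135, 120 and 142 FPKM in the same order, the β chains 123, 190, 184 and 187, and the γ chains 37.0, 60.04, 62.1 and 81.9. In each class the Smad3 KO Dox sum was the lowest.

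**Figure D3:**
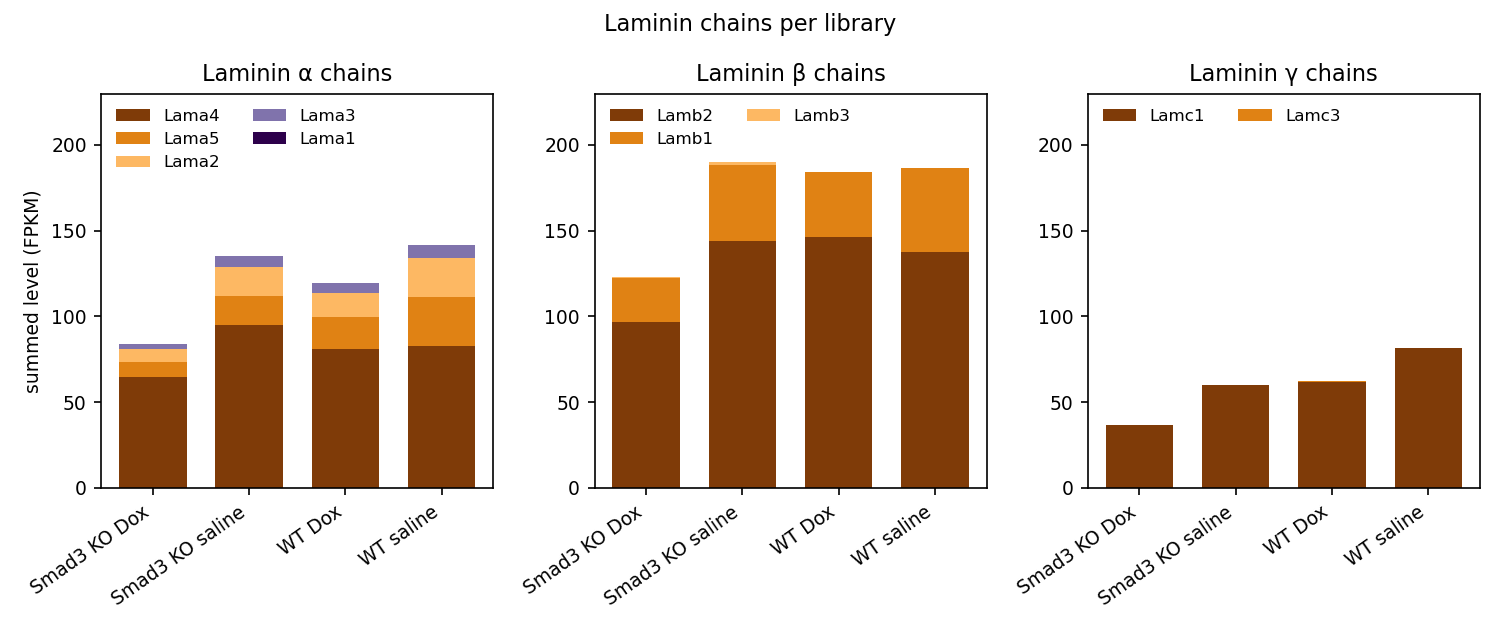
Summed FPKM of laminin α, β and γ chains in each library, stacked by chain on a linear axis that starts at 0. Each bar is 1 library; the Smad3 KO Dox bar is the shortest in each panel, at 83.8, 123 and 37.0 FPKM, and Lama4, Lamb2 and Lamc1 make up most of each bar.

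Lamb3, which pairs with Lama3 in the laminin of epithelial basement membranes, was the most uneven of the 10 genes under the filter and was picked out after its values were seen. It had 0.384 FPKM in Smad3 KO Dox, 1.90 in Smad3 KO saline, 0.111 in WT Dox and 0.0849 in WT saline cells, or roughly 38, 226, 13 and 11 fragments. Its level was high in the Smad3 KO saline library and next highest in the other KO library, and its partner Lama3 did not share that order. Without the filter Lamb3 would pass the rule at 2.03 in Smad3 KO saline against WT saline cells and at -1.44 in Smad3 KO Dox against Smad3 KO saline cells. Lamc3 stayed between 0.145 and 0.200 FPKM.

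The laminins are long transcripts, and length moved with the differences. The longest annotated transcript had a median of 7622 bases for the 7 laminins and 5629 for the 29 genes, against 3207 for all genes tested with a known length. Over all genes of 6000 bases or more the median difference was -0.37 in Smad3 KO Dox against WT Dox cells and -0.34 against Smad3 KO saline cells, while over genes under 1500 bases it was 0.39 and 0.26. With a running median over length taken away, the laminin medians were -0.38 and -0.42, and all 7 still lay below 0 in both comparisons. The calls of Lama2 (-0.76) and Lama3 (-0.54 against WT Dox and -0.64 against Smad3 KO saline) ended. The medians of the 29 genes became -0.20 and -0.30. They became -0.01 in WT Dox against WT saline and -0.03 in Smad3 KO saline against WT saline cells. At the size of 0.58 with the trend removed, an alternative chosen after seeing the data, 4 of the 29 were lower against WT Dox (Itga5, Itgam, Itgb1 and Itgb2), where 11.6% of all genes were, and 5 against Smad3 KO saline (Itgam, Itgb1, Itgb2, Lama2 and Lama3), where 9.17% were. In WT Dox against WT saline cells the count was 0, where 7.64% were, and in Smad3 KO saline against WT saline cells it was 1, Itgav, where 9.35% were. In that last comparison 2 were higher, Itgb4 (0.60) and Itgb5 (0.73), where 6.57% of all genes were. None of the 29 was higher in the other 3 comparisons, where 12.5% of all genes were against WT Dox, 10.4% against Smad3 KO saline and 4.44% in WT Dox against WT saline cells. Itgam, Itgb1 and Itgb2 were thus the genes past that size in both comparisons with Smad3 KO Dox with the trend removed. In Smad3 KO saline against WT saline cells the laminin median was -0.28 as deposited and 0.05 with the trend removed.

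**Figure D4:**
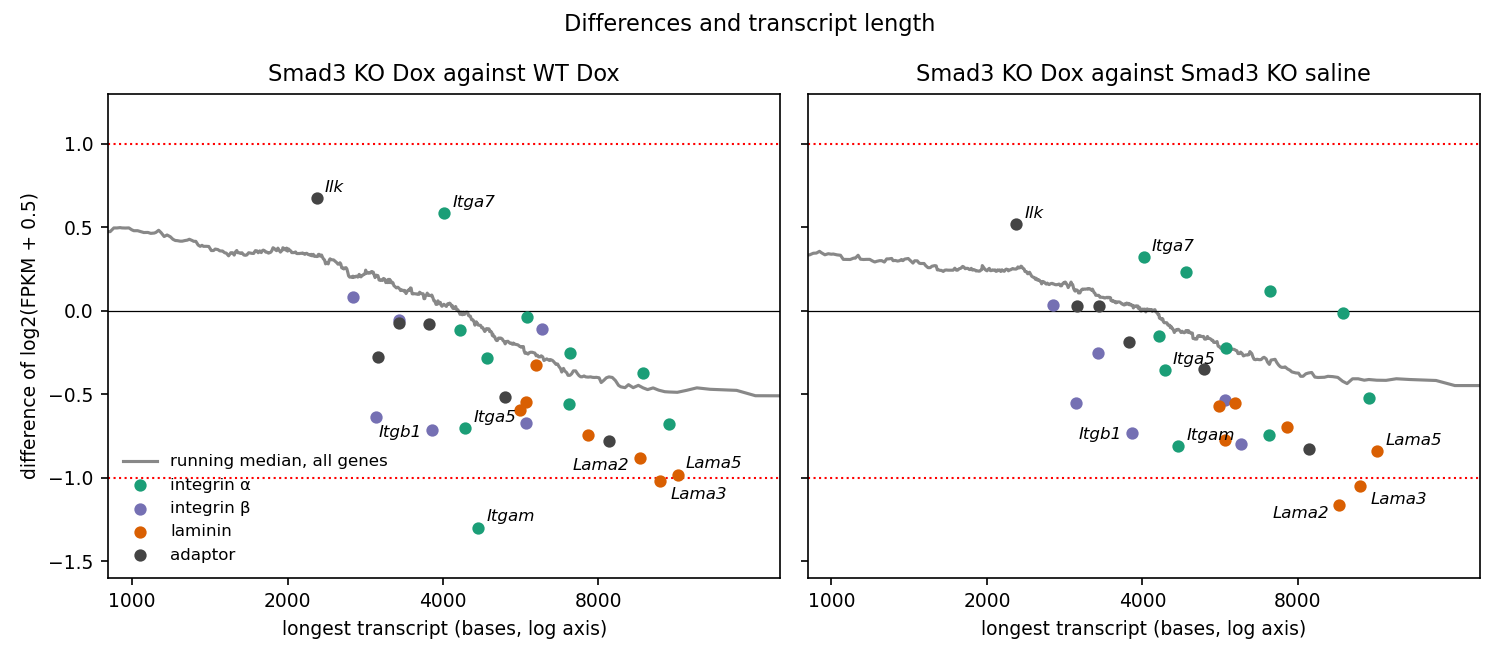
Difference of log2(FPKM + 0.5) against the longest annotated transcript in bases, on a log axis, for Smad3 KO Dox against WT Dox on the left and against Smad3 KO saline on the right; points are the 29 genes colored by role, the grey line is the running median of all genes, and the red dotted lines mark the size rule. The laminins at the right of each panel lie below the grey line, whose own fall with length takes up part of their distance from 0.

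Several basement membrane partners of the laminins and other integrin ligands were lowest in Smad3 KO Dox and highest in WT saline cells. Others were not, and Sparc, Vtn and Icam2 were highest in Smad3 KO Dox. Of 19 genes on the list of such partners and ligands 15 were tested. In Smad3 KO Dox cells 9 of the 15 lay below 0 against WT Dox and 12 against Smad3 KO saline. Hspg2, the heparan sulfate proteoglycan perlecan, had 75.9 FPKM in Smad3 KO Dox, 198 in Smad3 KO saline, 193 in WT Dox and 291 in WT saline cells and fell in both comparisons with Smad3 KO Dox (-1.34 against WT Dox and -1.38 against Smad3 KO saline). Fn1, fibronectin, had 37.4, 76.9, 71.5 and 90.9 FPKM and fell against Smad3 KO saline (-1.03). Col4a1, a collagen chain of the basement membrane, had 262, 425, 466 and 626 FPKM and did not pass the rule. Vtn, vitronectin, was the only gene on the list to rise, with 143 FPKM in Smad3 KO Dox against 65.5 in WT Dox cells (1.12). In WT Dox against WT saline cells Thbs1, thrombospondin, was the only one to pass the rule, with 11.9 FPKM in WT Dox and 33.5 in WT saline cells (-1.45), and in Smad3 KO saline against WT saline cells none passed. The list median was -0.34 in Smad3 KO Dox against WT Dox cells, -0.55 against Smad3 KO saline, -0.22 for doxorubicin in WT and -0.20 for the KO under saline. All differences of this list, those of Hspg2 and Fn1 among them, are given as deposited, with the length trend still in them. None of the 4 other laminin receptors tested (Dag1, Bcam, Mcam and Rpsa) passed the rule in any comparison.

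Itgb1 had 218 FPKM in Smad3 KO Dox, 362 in Smad3 KO saline, 358 in WT Dox and 335 in WT saline cells. The level was thus low in Smad3 KO Dox alone, with differences of -0.72 against WT Dox and -0.73 against Smad3 KO saline, and the other 3 libraries lay within a narrow band. Its transcript of 3815 bases is near the median length, and its differences were -0.81 and -0.76 with the length trend removed. The doxorubicin difference of Itgb1 was -0.73 in KO and 0.10 in WT cells (-0.09 with TPM), a gap of -0.83 that was not tested.

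Itgb5, which joins Itgav in a vitronectin receptor, had another order, with 44.2 FPKM in Smad3 KO Dox, 52.9 in Smad3 KO saline, 46.0 in WT Dox and 32.3 in WT saline cells. It was lowest in WT saline, with differences of 0.50 in WT Dox and 0.70 in Smad3 KO saline against that library. The share of Itgb5 in summed β chain FPKM was 16.2% in Smad3 KO Dox, 12.3% in Smad3 KO saline, 10.99% in WT Dox and 8.43% in WT saline cells, and that of Itgb1 79.9%, 84.0%, 85.6% and 87.4%. Itgb3, the β chain of platelets and of activated endothelium, stayed between 1.69 and 3.22 FPKM, lowest in Smad3 KO Dox. The 8 platelet markers summed to 29.05 FPKM in Smad3 KO Dox, 38.1 in Smad3 KO saline, 43.6 in WT Dox and 54.9 in WT saline cells, nearly all of it from Pf4 (25.6, 35.4, 41.8 and 52.6 FPKM). Others did not share that order, and Ppbp had 1.42, 0.879, 0.324 and 0.393 FPKM. The part of platelet RNA in Itgb3 was not tested. Itgb4, which with Itga6 binds laminin, lay between 3.28 FPKM in Smad3 KO Dox and 6.07 in Smad3 KO saline cells. Among markers of Schwann cells, which use Itgb4, Gfra3 was also highest in Smad3 KO saline, with 2.04 FPKM in Smad3 KO Dox, 4.51 in Smad3 KO saline, 1.40 in WT Dox and 1.83 in WT saline cells. Sox10, a transcription factor of the same cells, had another order, with 1.39 FPKM in Smad3 KO Dox, 0.985 in Smad3 KO saline, 0.602 in WT Dox and 0.549 in WT saline cells, and the part of such cells in Itgb4 was not tested. Itgb8, which with Itgav frees TGF-β from its latent form, had at most 0.156 FPKM, and Itgb6, an epithelial chain with the same action, was above 0.05 FPKM only in Smad3 KO Dox, at 0.0895.

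The median of the 6 β chains was -0.37 in Smad3 KO Dox against WT Dox and -0.54 against Smad3 KO saline cells. It was 0.00 for doxorubicin in WT and 0.25 for the KO under saline, and with TPM these became -0.18 and -0.12.

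Itga6, the main laminin-binding α chain of endothelium, had 167 FPKM in Smad3 KO Dox, 186 in Smad3 KO saline, 181 in WT Dox and 222 in WT saline cells. It made up 64.5%, 62.2%, 59.8% and 61.3% of the summed α chains that can pair with Itgb1 and its highest level was 1.33 times its lowest. As deposited, Itga6 was also lowest in Smad3 KO Dox, by less than Itgb1 (-0.11 against WT Dox and -0.15 against Smad3 KO saline). With TPM its difference against Smad3 KO saline became 0.09. The ratio of those summed α chains to Itgb1 was 1.19 in Smad3 KO Dox, 0.826 in Smad3 KO saline, 0.845 in WT Dox and 1.08 in WT saline cells. In WT saline the ratio was also above 1, there through high α chain levels.

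Itga1, a receptor chain for collagen and laminin, had 21.7 FPKM in Smad3 KO Dox, 31.4 in Smad3 KO saline, 35.1 in WT Dox and 42.3 in WT saline cells. Itga5, the α chain of the fibronectin receptor, had 17.5, 22.5, 28.7 and 33.7 FPKM in the same order. Both were stepped from WT saline down to Smad3 KO Dox, with differences of -0.68 and -0.70 in Smad3 KO Dox against WT Dox cells. With the length trend removed that of Itga1, a transcript of 10967 bases, was -0.19 and that of Itga5, one of 4415 bases, was -0.69. Itga9, which binds tenascin and is known for the valves of lymphatic vessels, had 15.5, 26.3, 23.1 and 24.6 FPKM, low in Smad3 KO Dox alone. With the length trend removed, the differences of Itga9, a transcript of 7020 bases, went from -0.56 to -0.17 against WT Dox. Against Smad3 KO saline they went from -0.74 to -0.43. Lymphatic markers, as deposited, were low in Smad3 KO Dox too. They summed to 113 FPKM in Smad3 KO Dox, 244 in Smad3 KO saline, 226 in WT Dox and 319 in WT saline cells. Of these markers 3 of 6 passed the rule in each comparison with Smad3 KO Dox, and their part in Itga9 was not tested.

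Itgav fell to 2.98 FPKM in Smad3 KO saline, against 6.79 in WT saline cells (-1.07). Smad3 KO Dox had 3.27 and WT Dox 4.0 FPKM, so WT saline stood apart above the other 3 libraries. Its doxorubicin difference was 0.12 in KO and -0.69 in WT cells. The call in saline cells ended with the length trend removed (-0.82) and with a pseudocount of 1 (-0.97).

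Itga7, a laminin receptor chain of heart and skeletal muscle, was the only α chain highest in Smad3 KO Dox, with 19.7 FPKM there, 15.7 in Smad3 KO saline, 12.996 in WT Dox and 14.8 in WT saline cells. Its difference against WT Dox was 0.58, short of the rule. Markers of cardiomyocytes, which carry Itga7, summed to 2086 FPKM in Smad3 KO Dox, 1540 in Smad3 KO saline, 1212 in WT Dox and 916 in WT saline cells, with 3 of 11 tested risen against WT Dox. Myl2 made up much of that sum, with 920 FPKM in Smad3 KO Dox and 438 in WT Dox cells. Of the 11, 1 lay below 0 in that comparison, Myh6 (-0.35). Lama2, a chain of the muscle basement membrane, ran in nearly the opposite order to these markers. The part of cardiomyocyte RNA in either gene was not tested.

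Itga3, another laminin-binding chain, had 9.67 FPKM in Smad3 KO Dox, 8.18 in Smad3 KO saline, 11.9 in WT Dox and 8.97 in WT saline cells, highest in WT Dox. Itga8, a receptor chain for nephronectin, lay between 3.44 and 5.12 FPKM, and Itga4, a receptor chain for Vcam1, between 0.792 and 1.48. The collagen receptor chains Itga2, Itga10 and Itga11 were under the filter, between 0.0643 and 1.02 FPKM, and Itga2 and Itga10 were highest in WT saline and lowest in Smad3 KO Dox, as Itga1 was. The 10 α chains tested had a median of -0.33 in Smad3 KO Dox against WT Dox cells, -0.19 against Smad3 KO saline, -0.24 for doxorubicin in WT and -0.36 for the KO under saline, and the value of -0.19 became 0.04 with TPM.

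Of 6 genes of leukocyte adhesion among the 39, Itgam fell to 1.44 FPKM in Smad3 KO Dox, against 4.28 in WT Dox cells (-1.30), with 2.91 in Smad3 KO saline and 4.44 in WT saline cells. Those levels rest on roughly 136, 333, 498 and 558 fragments in Smad3 KO Dox, Smad3 KO saline, WT Dox and WT saline cells. Both KO libraries lay under both WT libraries. The fall held with the length trend removed (-1.21). Itgb2, the β chain that Itgam, Itgal and Itgax share, had 3.45 FPKM in Smad3 KO Dox, 5.30 in Smad3 KO saline, 5.64 in WT Dox and 6.72 in WT saline cells, the same order of libraries as Itgam at a smaller size (-0.64 against WT Dox). Itgam over Itgb2 was 0.418, 0.549, 0.759 and 0.661 in that order.

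The other leukocyte genes differed by less than Itgam in Smad3 KO Dox against WT Dox cells. The differences were -0.28 for Fermt3 and Itgax, -0.23 for Itgal and 0.08 for Itgb7. Fermt3, the kindlin of blood cells, had 3.002 FPKM in Smad3 KO Dox, 2.93 in Smad3 KO saline, 3.75 in WT Dox and 3.82 in WT saline cells. For Fermt3 too, both KO libraries lay under both WT libraries. Itgb7, a β chain of lymphocytes that home to the gut, had 1.91, 1.86, 1.77 and 1.22 FPKM. Itgal, the α chain of the lymphocyte receptor for Icam1, lay between 0.515 and 0.941 FPKM and Itgax, an α chain of dendritic cells, between 0.415 and 0.675.

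Macrophage markers moved with Itgam. All 13 were tested, 9 fell in Smad3 KO Dox against WT Dox cells with a list median of -1.40, and their summed level was 268 FPKM in Smad3 KO Dox, 421 in Smad3 KO saline, 703 in WT Dox and 691 in WT saline cells. Cd68, a lysosomal protein of macrophages, had 7.16, 13.5, 22.1 and 20.3 FPKM in that order. Markers of other leukocytes summed to 42.8, 41.2, 45.2 and 41.0 FPKM, most of it from Coro1a and Lcp1, and single markers went both ways. In Smad3 KO Dox against WT Dox cells Cd79b, a B cell gene, fell (-1.45) and Ptprc, which encodes CD45, differed by -0.62. S100a9, a neutrophil gene, had 2.61 FPKM in Smad3 KO Dox and stood at 0.05 in WT Dox cells. The part of macrophage RNA in Itgam and Itgb2 was not tested.

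**Figure D5:**
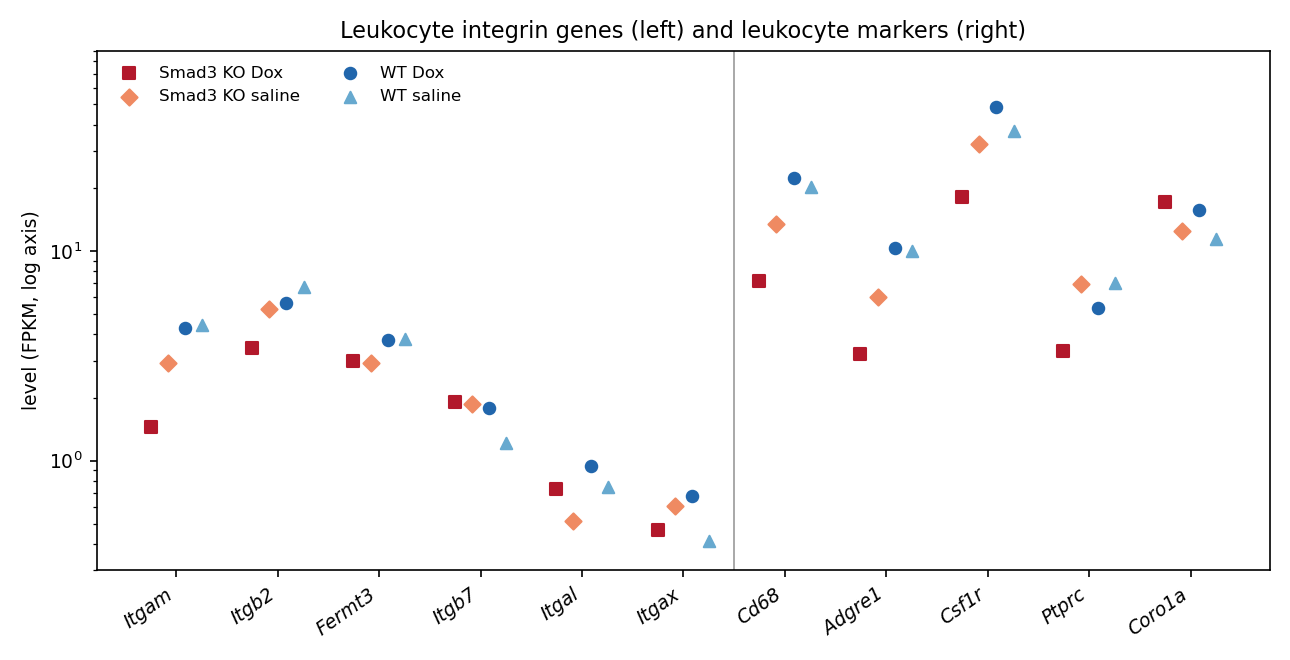
Level in FPKM, on a log axis, of the 6 leukocyte adhesion genes (left of the line) and of 5 leukocyte markers (right of it) in the 4 libraries, with 1 symbol per library. Itgam and Itgb2 run in an order like that of the macrophage genes Cd68, Adgre1 and Csf1r, low in Smad3 KO Dox at 1.44 and 3.45 FPKM, while Fermt3 lies between 2.93 and 3.82 FPKM.

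Of the 6 adaptors none passed the rule in any comparison. Tln1, talin, which binds the β chain and opens the receptor, had 72.8 FPKM in Smad3 KO Dox, 130 in Smad3 KO saline, 125 in WT Dox and 113 in WT saline cells. It was low in Smad3 KO Dox alone, as Itgb1 was, with differences of -0.78 against WT Dox and -0.83 against Smad3 KO saline. Tln1 is a transcript of 8393 bases, and with the length trend removed its differences were -0.38 and -0.46. Those of Itgb1 were then -0.81 and -0.76, so Tln1 was left with the smaller differences. Vcl, vinculin, which strengthens the link of talin to actin, had 20.8, 26.7, 29.9 and 37.1 FPKM, in steps from WT saline down to Smad3 KO Dox.

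Ilk, integrin-linked kinase, which joins the β chain to parvin and actin, was the only adaptor highest in Smad3 KO Dox, with 163 FPKM there, 114 in Smad3 KO saline, 102 in WT Dox and 135 in WT saline cells. Its differences were 0.67 against WT Dox and 0.52 against Smad3 KO saline. Ilk is a transcript of 2278 bases, and with the length trend removed its differences were 0.35 and 0.27. Ilk over Tln1 was 2.23 in Smad3 KO Dox, 0.876 in Smad3 KO saline, 0.813 in WT Dox and 1.20 in WT saline cells. That ratio is as deposited, with the length trend of a short and a long transcript still in it. The exons of Ilk share 2106 bases with Taf10 on the other strand, a transcription factor subunit gene with 141, 118, 81.2 and 76.3 FPKM in the same order. Whether the counting used strand is not given in the sources used here, so the reads of these 2 genes cannot be told apart in the shared stretch. Vcl shares 2090 exonic bases with Ap3m1 and Tln1 360 with Creb3, with the same limit.

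Fermt2, the kindlin of endothelium and muscle, had 109 FPKM in Smad3 KO Dox, 107 in Smad3 KO saline, 115 in WT Dox and 125 in WT saline cells. Pxn, paxillin, a scaffold for kinases at the adhesion, had 80.0, 91.1, 84.8 and 88.6 FPKM. These levels were nearly flat over the libraries. The median of the 6 adaptors was -0.18 in Smad3 KO Dox against WT Dox cells, -0.08 against Smad3 KO saline, -0.09 for doxorubicin in WT and -0.23 for the KO under saline, and the value of -0.08 became 0.15 with TPM.

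Of 28 other adaptors and kinases of focal adhesions 27 were tested, and the share past the rule was under that of all genes. It was 2 of 27 in Smad3 KO Dox against WT Dox cells, where 9.92% of all genes passed, and 1 of 27 in Smad3 KO saline against WT saline cells, where 4.72% did. In Smad3 KO Dox against WT Dox cells Tns1, tensin, which links the β chain to actin, had 177 against 370 FPKM (-1.06), and Sharpin, an inhibitor of integrin activation, had 23.5 against 10.7 FPKM (1.10). In Smad3 KO saline against WT saline cells Parvg, the parvin of blood cells, had 0.975 against 2.53 FPKM (-1.04). None of the 27 passed for doxorubicin in WT or in KO cells, where 3.72% and 6.86% of all genes did. The focal adhesion kinase Ptk2 stayed between 30.4 and 39.3 FPKM.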

How the data were processed

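RNA was measured in 4 libraries, 1 each of Smad3 KO Dox, Smad3 KO saline, WT Dox and WT saline cells. The authors deposited FPKM per gene in 1 table, with 0.05 as its lowest common value and no counts. CASAVA, STAR and GRCm38 p4 stand in the submitters' processing notes, while the methods of the study name another aligner and a human build for RNA sequencing as a whole, so the pipeline of this table is unsure. FPKM was computed by the authors before deposit. Lines of the same gene ID were summed here (51 IDs on 121 lines).

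Here differences of log2(FPKM + 0.5) were taken between libraries where the mean over libraries reached 1 FPKM, and the size rule was 1. Transcript lengths and overlaps came from GENCODE M21, with a length for 44952 IDs, and the length trend was a running median over 501 genes. Depth was estimated from the spacing of low values, of which 79.0% to 82.0% lay within 0.1 of a whole fragment. The scripts were checked on simulated data and used Python 3.11.15, pandas 2.3.3, numpy 2.4.6 and matplotlib 3.10.9.

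All 4 values are given where the mean reached 5 FPKM or a gene passed the rule, and most others are given by range. The members, gene lists and marker lists were chosen with earlier results of these data known. Alternatives changed the pseudocount, floor, filter, scaling, size rule and length trend.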

Additional observations from a re-analysis of the deposited data

How the results depend on the processing

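No paired analysis was possible because each group has 1 library, and for the same reason no library could be left out. The number of genes past the rule in WT Dox against WT saline cells was 0, and 3 at a size rule of 0.58. In Smad3 KO Dox against WT Dox cells it was 2, and it became 1 with a pseudocount of 1, 1 with a filter of 5 FPKM, 4 with median-ratio scaling, 14 at a size rule of 0.58, 1 with the length trend removed, 4 with both of these and 1 relative to the pan-endothelial markers, where the last 2 alternatives were chosen after seeing the data. In Smad3 KO Dox against Smad3 KO saline cells it was 2, and it became 1 with a pseudocount of 1, 0 with TPM, 10 at a size rule of 0.58, 0 with the length trend removed, 5 with both of these and 0 relative to the pan-endothelial markers. In Smad3 KO saline against WT saline cells it was 1, and it became 0 with a pseudocount of 1, 2 with no filter (with Lamb3, which was higher), 0 with a filter of 5 FPKM, 2 with TPM (with Lama5), 4 at a size rule of 0.58, 0 with the length trend removed, 3 with both of these and 0 relative to the pan-endothelial markers. The cause of these moves was not tested beyond each alternative's own construction. The Smad3 difference of KO against WT libraries was -1.06, -0.86 with a pseudocount of 1 and -0.29 when grouped by the genotype field. No gene past the rule changed direction under any alternative run. TPM moved the median of all genes from -0.06 to -0.24 in WT Dox against WT saline, from 0.05 to 0.29 for doxorubicin in the KO and from -0.01 to -0.38 in Smad3 KO saline against WT saline cells, and median-ratio scaling moved it from 0.12 to -0.01 in Smad3 KO Dox against WT Dox cells. Lama1, Itgb6, Itga11, Lamc3 and Itgb8 rest on at most 36 estimated fragments in any library, and without replicates no difference can be set against the spread between animals.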
